A study of Mus musculus with 27 samples.

Results

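The genes described are the subunits of the mitochondrial complexes of oxidative phosphorylation. They were taken from the table of normalized reads by symbol: the Ndufa, Ndufb, Ndufc, Ndufs, Ndufv and Ndufab genes of complex I without Ndufa4, the 4 Sdh genes of complex II, listed Uqcr genes of complex III and Cox genes of complex IV, the Atp5 genes of complex V, and the subunits encoded by the mitochondrial genome. Of 85 symbols that fit these patterns, Ndufa4 was left out by the rule and 2 had a mean under 10 normalized reads over the 27 mice. This left 82 subunits among the 40129 genes of the table. Of these, 74 were nuclear-encoded (37 of complex I, 4 of complex II, 8 of complex III, 9 of complex IV and 16 of complex V) and 8 were encoded by the mitochondrial genome. The rule used only symbols and the mean over all mice, and no difference between groups was part of it. It was set with earlier results of these data known. All 82 passed the filter for testing, a mean of at least 1 normalized read, and all were far above it. The subunits just inside the limit of 10 were mt-Nd3, with a mean of 89.3 normalized reads, and Atp5l, with 291.5. Just outside it were mt-Atp6, with 0.200, and mt-Co3, with 0.0653.

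Oxidative phosphorylation transfers electrons from NADH at complex I and from succinate at complex II through complex III to oxygen at complex IV, and the protons pumped on the way drive ATP synthesis at complex V. Complexes I, III, IV and V combine subunits made from nuclear genes with a few core subunits read from the mitochondrial genome, while complex II is entirely nuclear. The retina is among the tissues that use most oxygen, and the inner segments of photoreceptors are packed with mitochondria.

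The mice were wildtype pups, C57BL/6 in the labels and C57BL/6J in the study's methods. OIR (oxygen-induced retinopathy) mice were kept in room air until p7, in 75% oxygen until p12 and in room air again until p14 or p17, whereas nOIR mice stayed in room air throughout and served as controls of the same age. In this model, the central retina has lost capillaries and is hypoxic at p14, and new vessels grow from the retina at p17. Whole retinas of 27 mice were sequenced, 1 library per mouse from 1 or 2 retinas, and 26 mice were compared: 6 nOIR and 6 OIR mice at p14, and 6 nOIR and 8 OIR mice at p17. Mouse S4 of nOIR p14 was left out, as in the study. The groups came from 3, 4, 2 and 3 litters in that order, and which mouse came from which litter was not known, so mice were taken as independent. In RNA of whole retina, fewer cells of a type and less RNA per cell cannot be told apart.

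Libraries held 17029536 to 33593428 reads, with the fewest in OIR p17 mouse S1. The 74 nuclear subunits took 1.02% to 1.77% of the reads of a mouse and the 8 mt-encoded subunits 0.241% to 0.549%. Rod, cone and bipolar cell markers were present in every group, with the summed level of 11 rod markers between 1139700 and 2016230 normalized reads in the 26 mice.

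The mitochondrial genome has copies in the nuclear genome, and these bear on which mt-encoded subunits could be measured at all. Reads were 50 bases long and were counted only where they mapped to 1 place. In the reference transcripts (GENCODE M21, GRCm38), 99.9% of the 50-base windows of mt-Co3 and 99.5% of those of mt-Atp6 occur unchanged in another gene, as do 98.0% of those of mt-Nd3, 62.2% of mt-Nd4 and 51.1% of mt-Co1. The pseudogenes that hold most of them, Gm28437, Gm10925, Gm28438, Gm28439 and Gm29216, lie together on chr1:24611535-24616197. In contrast, 0% of the windows of mt-Nd1, mt-Nd6 and mt-Cytb were shared, 8.19% of mt-Nd2 and 7.61% of mt-Nd5. The following stretches show one of each kind, bases 151 to 200 of the transcript: that of mt-Nd3 is also present in Gm28438, and that of mt-Nd1 in no other annotated transcript.
mt-Nd3: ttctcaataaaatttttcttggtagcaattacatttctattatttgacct
mt-Nd1: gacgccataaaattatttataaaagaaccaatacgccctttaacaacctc

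Levels differed widely between the mt-encoded subunits. Per kilobase of transcript in nOIR p17 mice, mt-Cytb had a mean of 50493 and mt-Nd1 of 34671 normalized reads, while mt-Nd5, mt-Nd6, mt-Nd4 and mt-Nd2 lay between 9146 and 10183. On the same scale, mt-Co1 was at 3202 and mt-Nd3 at 355. The levels of mt-Nd3, mt-Nd4 and mt-Co1 therefore rest on the part of each gene that is not copied, and values for them are uncertain. The genes for mt-Nd5 (chrM:11742-13565, plus strand) and mt-Nd6 (chrM:13552-14070, minus strand) overlap at their ends, and reads were counted without regard to strand. Reads counted for mt-Nd6 can therefore come from either strand, and its values are uncertain too.

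Of the nuclear subunits, 63 of 74 had an entry in the RefSeq promoter table (GRCm38.p6), which holds 250 bases before to 50 after each start. The promoters of 3 subunits are shown from 150 bases before to 30 after the start: Sdha and Ndufb2, which are called below, and Sdhd, another subunit of complex II. Capitals mark matches, on either strand, to the sequence bound by NRF1 (nuclear respiratory factor 1), which is GCGC, any base and then TGCGC, and to CCGGAAG, the core bound by ETS factors such as GABP. Both factors are known regulators of respiratory genes.
Sdha: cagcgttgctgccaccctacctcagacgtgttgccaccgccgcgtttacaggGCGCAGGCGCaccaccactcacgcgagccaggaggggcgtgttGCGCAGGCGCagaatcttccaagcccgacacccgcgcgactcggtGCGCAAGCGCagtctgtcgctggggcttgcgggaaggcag
Sdhd: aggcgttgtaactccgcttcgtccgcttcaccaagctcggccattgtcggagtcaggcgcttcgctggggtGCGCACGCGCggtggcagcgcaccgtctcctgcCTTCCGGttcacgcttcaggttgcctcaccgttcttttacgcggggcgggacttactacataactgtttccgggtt
Ndufb2: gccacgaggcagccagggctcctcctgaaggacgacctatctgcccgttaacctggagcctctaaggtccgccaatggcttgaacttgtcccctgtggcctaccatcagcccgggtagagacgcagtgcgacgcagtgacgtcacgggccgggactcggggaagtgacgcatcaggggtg

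These windows are chr13:74350211-74350390 (minus strand) for Sdha, chr9:50603820-50603999 (minus strand) for Sdhd and chr6:39592415-39592594 (plus strand) for Ndufb2. The Sdha window holds 3 matches to the NRF1 sequence, all as the reverse complement of the letters shown, and the Sdhd window 1 to each, while the Ndufb2 window holds neither. Over the full windows, the NRF1 sequence was present in 16 of 63 subunit promoters (25.4%) and in 7.17% of the 17492 promoters of protein-coding genes (5.19% of all 27025 in the table). CCGGAAG was present in 17 (26.98%), against 12.9% of coding genes (9.93% of all). AAGATGGCG, bound by YY1, was present in 7 (11.1%), against 2.14% (1.64%). The short core sequences of hypoxia response elements were frequent in all promoters, with ACGTG in 16 (25.4%) against 23.2% of coding genes (21.8% of all) and GCGTG in 34 (54.0%) against 41.4% (35.2%). Matches of different motifs may share bases and were counted separately, and a match is a description of the letters only.

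To see which subunits differed in the hypoxic retina, OIR mice were compared with nOIR mice at p14. Limma with Benjamini-Hochberg adjustment over the 27137 genes tested called 1 of 82 subunits lower at an adjusted p under 0.05, where 2.91% of all genes tested were called lower. It called 0 subunits higher, against 3.18% of all genes, and edgeR and DESeq2 called 0 higher. Likewise 0 were higher at an unadjusted p under 0.05, against 8.86% of all genes. At an unadjusted p under 0.05, 5 of 82 were lower, a smaller share than the 8.12% of all genes. By edgeR and by DESeq2, 1 subunit was called lower, against 2.57% and 3.55% of all genes. The fold changes were small but mostly negative: 75 of 82 subunits (91.5%) were below 0, against 47.8% of all genes tested, and the median log2 fold change was -0.14 for the nuclear and -0.37 for the mt-encoded subunits, against 0.02 for all genes. The median SE of a nuclear subunit was 0.17 on the same scale, so a change of the size of the median could not be called for a single subunit. The nuclear median was -0.24 without nOIR p14 mouse S1 and -0.09 without OIR p14 mouse S6, and with S4 included it was -0.06.

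The subunit called at p14 was Ndufb2, an accessory subunit of the membrane arm of complex I. It had 1736, 2468 and 2491 normalized reads in nOIR p14 mice (lowest, median and highest) and 1419, 1706 and 1846 in OIR p14 mice. All control mice but S1, the lowest, had at least 2364, so the groups overlapped through that mouse. The difference was a log2 fold change of -0.48 ± 0.11 (SE), or 28.5% lower, with an adjusted p of 0.00414 (limma). It was called under each of the 41 alternatives tried. At p17 the value was -0.20, with an adjusted p of 0.227.

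At p17, when new vessels are present, limma called 6 subunits lower and 0 higher. Of all genes tested, 5.12% were called lower and 7.39% higher. By edgeR 4 and by DESeq2 6 subunits were lower, against 4.39% and 5.47% of all genes. At an unadjusted p under 0.05, 9 of 82 were lower, close to the 11.3% of all genes, and 0 were higher, against 3253 of the 27137 genes tested. The count of lower subunits was thus near that of all genes, while that of higher ones was below it, and neither edgeR nor DESeq2 called a subunit higher. In the limma fit 79 of 82 log2 fold changes were below 0, against 52.9% of all genes; by edgeR and by DESeq2 70 of 82 were. The median was -0.12 for the nuclear and -0.47 for the mt-encoded subunits, against -0.02 for all genes tested. The nuclear median rested on single mice: it was -0.01 without OIR p17 mouse S1, -0.06 without S2 and -0.07 without S5 or without nOIR p17 mouse S3 or S5, and it was -0.18 without OIR p17 mouse S3 or S8 and -0.19 without nOIR p17 mouse S1. It was -0.07 by edgeR and -0.08 by DESeq2, -0.05 with mice scaled to the same total or by quantile normalization, and -0.22 with a replicate block. Of the 6 subunits called, 4 were encoded by the mitochondrial genome and 2 by the nucleus. None of the 82 passed the study's rule for a differentially expressed gene at either age, which asks for a log2 fold change beyond 2 or -2 in addition to an adjusted p under 0.05. Over all genes, 0.884% did at p14 and 2.07% at p17.

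**Figure D1:**
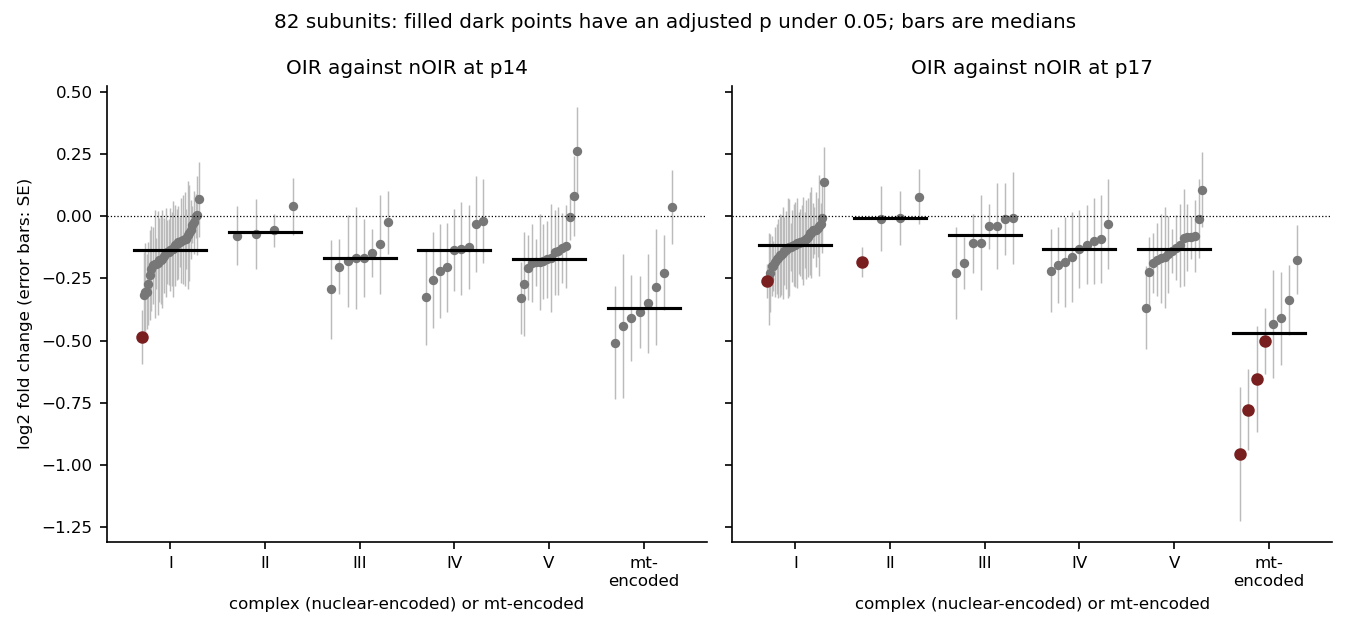
Log2 fold change of the 82 subunits in OIR against nOIR mice at p14 (left) and p17 (right), in columns for the nuclear-encoded subunits of complexes I to V and for the mt-encoded subunits. Points are subunits with their SE, dark points have an adjusted p under 0.05, and bars are medians; the mt-encoded column has the lowest median at both ages, -0.37 and -0.47.

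Among the mt-encoded subunits, the lowest p-value was that of mt-Nd1 (chrM:2751-3707), a core subunit of the proton-pumping arm of complex I. At p17 it had 30400, 32779 and 37259 normalized reads in nOIR mice (lowest, median, highest) and 12443, 18957 and 26831 in OIR mice. Every OIR mouse was below every control. The log2 fold change was -0.78 ± 0.16 (SE), 41.6% lower, with an adjusted p of 0.000931 (limma). At p14, nOIR mice had 16448, 32099 and 34268 and OIR mice 15344, 23096 and 25594. Here the control mouse S1 lay among the OIR mice and the other 5 controls were above all of them. The p14 value was -0.41, with an adjusted p of 0.198 (limma).

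The gene mt-Cytb (chrM:14145-15288) encodes cytochrome b, the only subunit of complex III that is read from the mitochondrial genome. Its nOIR p17 mice had 54147, 56648 and 62631 normalized reads and its OIR p17 mice 30728, 41275 and 53592. Again no OIR mouse reached the lowest control. The log2 fold change was -0.50 ± 0.13 (SE), 29.4% lower, with an adjusted p of 0.00974 (limma). At p14 the values were 32194, 53319 and 57830 in nOIR and 30173, 38671 and 47967 in OIR mice, with a log2 fold change of -0.39 and an adjusted p of 0.124.

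Both mt-Nd2 (chrM:3914-4951) and mt-Nd3 (chrM:9459-9806) are further core subunits of the membrane arm of complex I. For mt-Nd2, nOIR p17 mice had 8220, 9357 and 11214 normalized reads and OIR p17 mice 3314, 6289 and 9664. All OIR mice but S3 were below every control. The log2 fold change was -0.65 ± 0.21 (SE), with an adjusted p of 0.0395 (limma), and the call was lost under 15 of 41 alternatives, edgeR and the other scalings among them. For mt-Nd3, nOIR p17 mice had 93, 131 and 142 and OIR p17 mice 31, 74 and 88 normalized reads, with no overlap. Its log2 fold change was -0.95 ± 0.27, with an adjusted p of 0.0152 (limma), on the small part of the gene that is not copied in the nuclear genome.

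The 4 mt-encoded subunits that were not called at p17 were also lower in their means. The log2 fold change was -0.43 for mt-Nd6 (adjusted p = 0.231), -0.41 for mt-Nd4 (0.173), -0.34 for mt-Nd5 (0.125) and -0.17 for mt-Co1 (0.517), all by limma. The first 3 belong to complex I and mt-Co1 is the catalytic subunit of complex IV. In each of them OIR and nOIR mice overlapped. The values of mt-Co1 were 4085, 4845 and 5896 in nOIR p17 and 3126, 4216 and 6159 in OIR p17 mice, so that the highest mouse of all was an OIR mouse, S3.

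At p14, control mouse S1 was the lowest of the 6 controls compared for 8 of 8 mt-encoded subunits. It decided the calls of mt-Cytb, mt-Nd1 and mt-Nd2. The left-out control S4 was similarly low, with 15255 normalized reads of mt-Nd1 where S1 had 16448. The mt-encoded subunits took 0.252% of the reads of S4 and 0.265% of those of S1. Without S1, 4 subunits instead of 1 were called lower at p14: Ndufb2, and mt-Cytb (-0.51, adjusted p = 0.0152), mt-Nd1 (-0.57, 0.0227) and mt-Nd2 (-0.72, 0.0301), by limma. In that fit, 2.82% of all genes were called lower. With all mice, 0 of 8 mt-encoded subunits were called at p14 and 3 were lower at an unadjusted p under 0.05. The remaining p14 values were -0.44 for mt-Nd3, -0.35 for mt-Nd4, -0.28 for mt-Nd6, -0.23 for mt-Nd5 and 0.04 for mt-Co1.

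**Figure D2:**
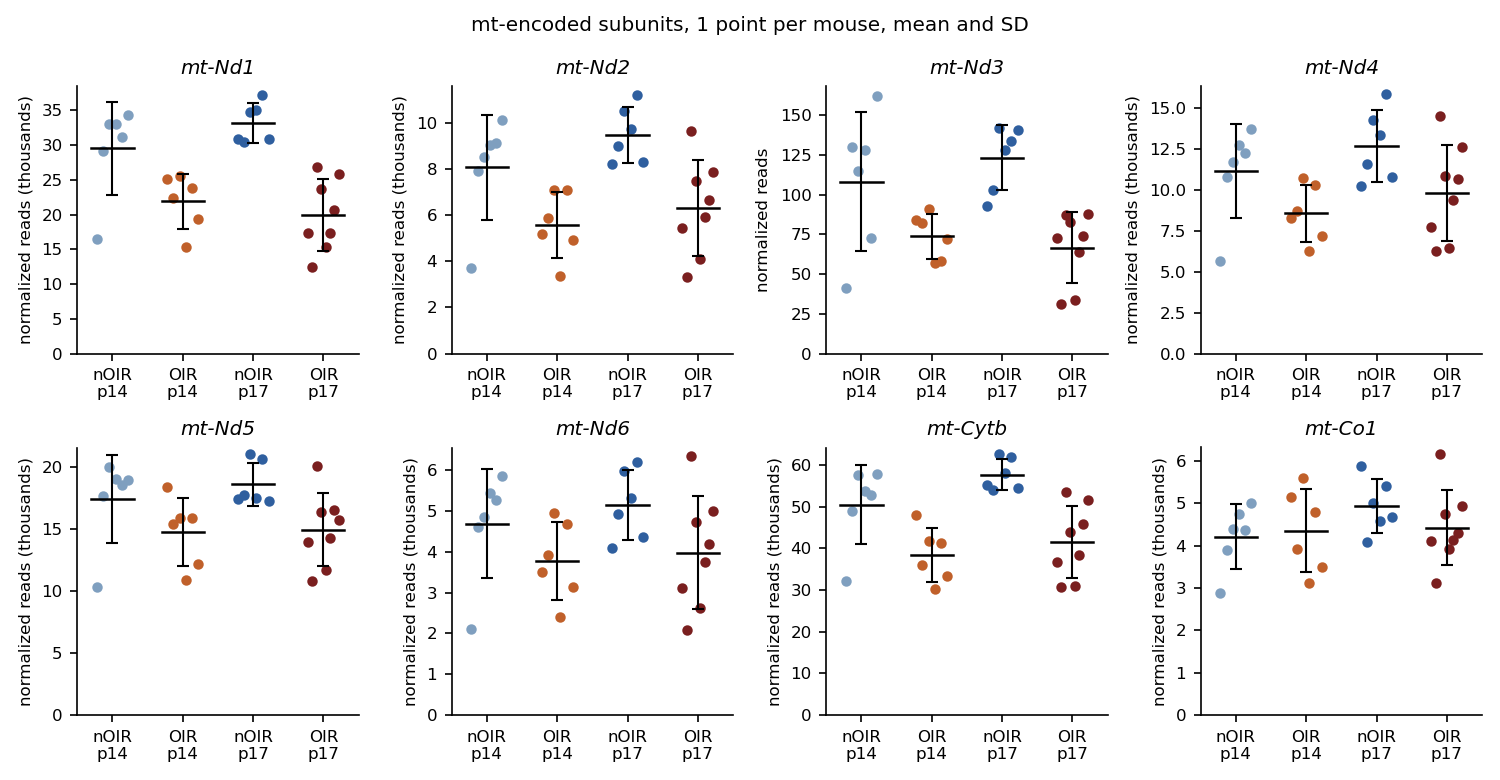
Normalized reads of the 8 mt-encoded subunits in each of 26 mice, by group, with the group mean and SD; each panel has its own axis from 0. The 6 nOIR p17 mice lie above all 8 OIR p17 mice for mt-Nd1, mt-Nd3 and mt-Cytb, and 1 nOIR p14 mouse (S1) is the lowest control in every panel.

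Groups without overlap were found for 4 of 82 subunits at p17, mt-Nd1, mt-Nd3, mt-Cytb and Ndufs1, all with OIR mice lower, where 1.98% of all genes tested had OIR mice below every control. At p14 there were 0 of 82, against 1.86%.

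In complex I, the 37 nuclear subunits had medians of -0.13 (p14) and -0.12 (p17) on the log2 scale, and 34 and 36 of them were below 0. The one called at p17 was Ndufs1, the largest subunit, which carries iron-sulfur clusters of the arm that takes electrons from NADH. It had 4892, 5054 and 5523 normalized reads in nOIR p17 mice and 3991, 4332 and 4443 in OIR p17 mice, with no overlap. The log2 fold change was -0.26 ± 0.07 (SE), 16.5% lower, with an adjusted p of 0.0098 (limma). The call was lost with each mouse scaled to the same total and with quantile normalization, with an adjusted p of at most 0.0762. At p14, nOIR mice had 4611, 4879 and 5484 and OIR mice 4532, 4601 and 6358, where 5 of 6 OIR mice lay between 4532 and 4643 and S1 stood apart at 6358. That comparison gave -0.03, with an adjusted p of 0.896.

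Other core subunits of complex I did not pass the test. At p17 the log2 fold changes were -0.17 for Ndufs8 and -0.11 for Ndufs7, which hold the iron-sulfur clusters nearest to the quinone, -0.05 for Ndufs3, a subunit of the arm that leads there, and -0.14 for Ndufv2 and -0.03 for Ndufv1, which bind the first iron-sulfur cluster and the flavin. Their adjusted p values lay between 0.529 and 0.885 (limma). The values of Ndufs8 were 2543, 3067 and 3357 in nOIR p17 and 1722, 2760 and 3877 in OIR p17 mice, so the OIR mice spanned the range of the controls on both sides. At p14 these 5 ranged from -0.30 (Ndufs8, adjusted p = 0.305) to 0.00 (Ndufv1, 0.999). Upward values in complex I were few: Ndufv3, an accessory subunit of the NADH-binding part, had 0.14 at p17 (adjusted p = 0.638) after 0.07 at p14, and Ndufb9, an accessory subunit of the membrane arm, had 0.00 at p14.

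In complex II, Sdha, the flavoprotein that oxidizes succinate and also serves the tricarboxylic acid cycle, was called lower at p17. It had 15884, 16764 and 17760 normalized reads in nOIR p17 mice and 13792, 14811 and 16646 in OIR p17 mice. All OIR mice but S8 were below every control. The log2 fold change was -0.18 ± 0.06 (SE), 11.99% lower, with an adjusted p of 0.0481 (limma). This call was near the threshold and was lost under 28 of 41 alternatives, edgeR among them, with adjusted p from 0.00501 to 0.537. At p14 the value was -0.06 (adjusted p = 0.764). The other 3 subunits, the iron-sulfur protein Sdhb and the membrane anchors Sdhc and Sdhd, had log2 fold changes of 0.08, -0.01 and -0.01 at p17, with adjusted p between 0.754 and 0.983, and of -0.08, -0.07 and 0.04 at p14.

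**Figure D3:**
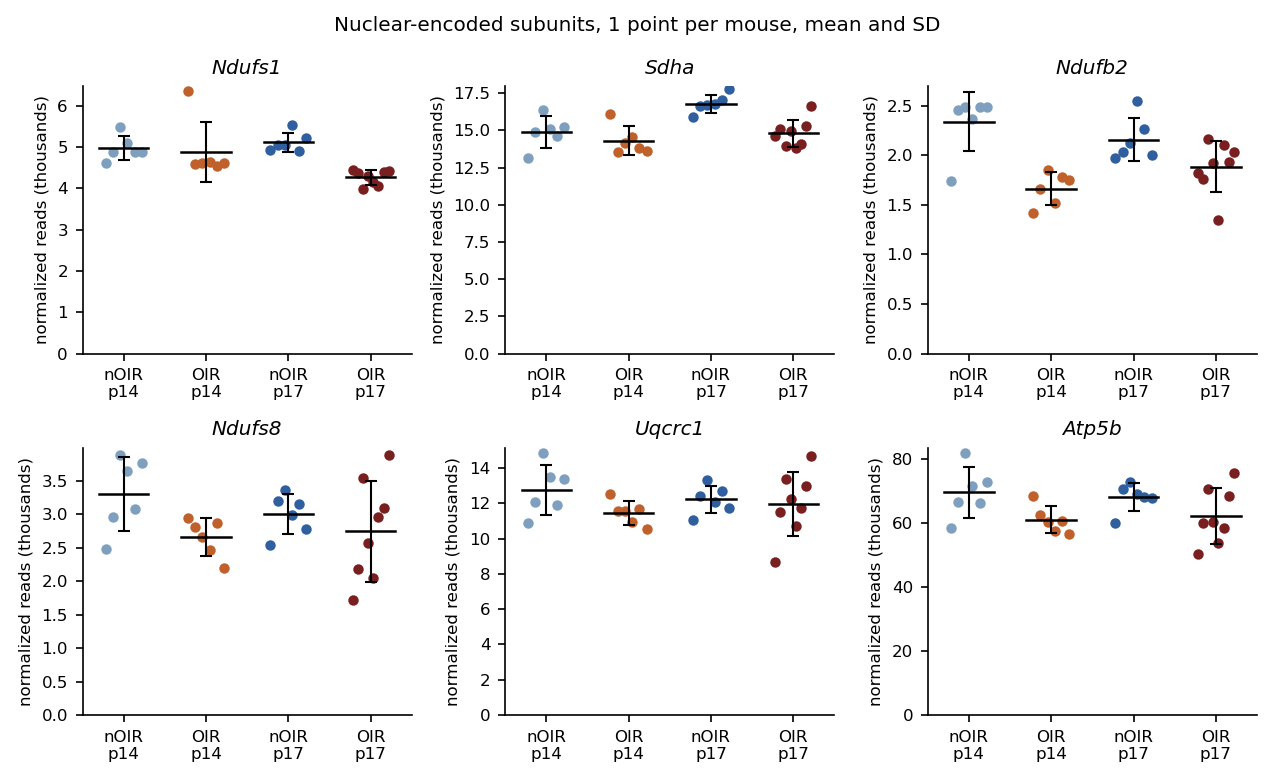
Normalized reads of 6 nuclear-encoded subunits in each of 26 mice, by group, with the group mean and SD. For Ndufs1 the 8 OIR p17 mice lie below the 6 nOIR p17 mice, for Sdha 7 of 8 do, and for Ndufs8, Uqcrc1 and Atp5b the OIR p17 mice spread over a wider range than the controls.

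In complex III, 0 of 8 nuclear subunits were called at either age (limma, edgeR and DESeq2, with 0 at an unadjusted p under 0.05), and in the limma fit all 8 were below 0 at both, with a median of -0.17 at p14 and -0.07 at p17. By edgeR and by DESeq2, 7 of 8 were below 0 at p14 and 5 of 8 at p17, with p17 medians of -0.03 each. The lowest was Uqcrb, which takes part in quinone binding, at -0.29 (p14, adjusted p = 0.504) and -0.23 (p17, 0.523) by limma, and 43.4% of its windows are shared with other genes. The Rieske iron-sulfur protein Uqcrfs1 was at -0.20 (0.371) and -0.19 (0.288) in the same order. The core protein Uqcrc1 had 11060, 12257 and 13312 normalized reads in nOIR p17 and 8669, 11987 and 14657 in OIR p17 mice, a log2 fold change of -0.04 (0.854). The other core protein, Uqcrc2, had -0.02 at p14, where OIR mouse S1 had 7601 and the other 5 OIR mice 3986 to 4360, and the small subunit Uqcr11 had -0.01 at p17.

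In complex IV, 0 of 9 were called, likewise by the 3 tools and with 0 at an unadjusted p under 0.05, and in the limma fit all 9 were below 0 at both ages, with a median of -0.13 each time. By edgeR and by DESeq2, 8 of 9 were below 0 at p17, with medians of -0.08 and -0.09. At p14 the lowest p-values belonged to Cox7c (-0.33, adjusted p = 0.426, limma) and Cox8a (-0.26, 0.567), and at p17 to Cox7b (-0.22, 0.489) and Cox6c (-0.20, 0.507). These are small accessory subunits around the catalytic core. At the upper end stood Cox5b, with -0.02 at p14, and Cox6a1, with -0.03 at p17. The OIR p17 values of Cox8a ran from 4825 to 14453 normalized reads, beyond the controls (7636 to 13398) on both sides.

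In complex V, 0 of 16 were called by limma, edgeR or DESeq2, and in the limma fit 1 was lower at an unadjusted p under 0.05 at each age, with medians of -0.17 at p14 and -0.13 at p17. The catalytic subunits Atp5b and Atp5a1 had -0.19 and 0.00 at p14 and -0.14 and -0.09 at p17, with adjusted p of 0.325 or more (limma). Among the subunits of this complex, Atp5d, part of the central stalk, had the lowest p-value at p14 (-0.33, adjusted p = 0.217). Atp5g3, which encodes the proton-carrying c subunit, had -0.23 at p17 (0.367), while Atp5g2, another gene for the same subunit, had 0.08 and 0.11. Atp5l, a membrane subunit, ran from 0.26 at p14 (0.524) to -0.37 at p17 (0.176), on low reads and with 84.8% of its windows shared with other genes.

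A further contrast set the effect of OIR at the later age against that at the earlier one. No subunit was called in either direction (limma), while 1.58% of all genes were; 0 were higher and 2 lower at an unadjusted p under 0.05 (6.31% and 4.35% of all genes), and edgeR and DESeq2 called 0. The smallest adjusted p was 0.301. The p17 calls of mt-Nd1, mt-Cytb and the other subunits named above are therefore not shown to differ from their p14 values. Age in the controls was likewise without a call (0 of 82 against 0.317% of all genes, and 0 by edgeR and DESeq2). For age, 1 was higher and 0 lower at an unadjusted p under 0.05, against 3.4% and 3.96% of all genes. Within the controls, mt-encoded subunits had a median of 0.22 from p14 to p17 and nuclear subunits -0.12. The p14 controls include the low mouse S1. By the median mouse, the share of reads on mt-encoded subunits was alike, 0.482% in nOIR p14 and 0.479% in nOIR p17. In OIR p17 against OIR p14 mice, 0 of 82 were called against 5.91% of all genes, and edgeR and DESeq2 called 0. There 0 were higher and 2 lower at an unadjusted p under 0.05, against 9.72% and 8.56% of all genes.

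The share of reads on mt-encoded subunits relative to nuclear subunits gave the same picture as values, without a test. In nOIR p17 mice the ratio of the 2 shares was 0.302, 0.331 and 0.386 (lowest, median, highest) and in OIR p17 mice 0.205, 0.242 and 0.328. All OIR p17 mice but S1, the library with the fewest reads, were below every control. At p14 it was 0.215, 0.287 and 0.300 in nOIR and 0.197, 0.239 and 0.265 in OIR mice, and the control mouse S1 was again the one among the OIR mice.

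Within a group, nuclear subunits moved up and down together from mouse to mouse. Taking each subunit's log2 level relative to its group mean over the 26 mice, the median correlation between 2 nuclear subunits was 0.92 over 2701 pairs, and 2484 pairs were above 0.5. Among mt-encoded subunits it was 0.91 over 28 pairs. These correlations are descriptions across mice that share library, depth and scaling within each mouse. The range was wide in OIR p17 mice, where the median nuclear subunit lay from 0.69 below (S1) to 0.47 above (S8) the group mean on the log2 scale, and narrower in OIR p14 mice, from -0.25 to 0.18. The S1 mice of nOIR p14 (-0.47) and nOIR p17 (-0.36) were likewise the lowest of their groups.

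The same movement was present in other short transcripts. Length was the median over the annotated coding transcripts of a gene, so a gene counted as short can also have a longer transcript. Taken were 870 genes outside the lists with a length under 800 bases and a mean of at least 500 normalized reads. Their median level went with the median nuclear subunit at a correlation of 0.94 (26 mice), and that of 974 genes with a length above 5000 bases at -0.89. Individually, 69 of 74 nuclear subunits had a correlation above 0.7 with the short-transcript level. The 5 that did not were Atp5l (-0.64), Ndufs1 (0.13), Ndufb2 (0.39), Sdha (0.45) and Uqcrc2 (0.68), and the 3 nuclear subunits called lower at p14 or p17 are among them. Ndufs1 and Sdha also varied least within groups, with SDs of 0.11 and 0.08 on the log2 scale against a median of 0.29 over the nuclear subunits. Group means of the short-transcript level were 10.52 in nOIR and 10.49 in OIR mice at p14, and 10.48 in nOIR and 10.51 in OIR mice at p17, on the log2 scale.

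**Figure D4:**
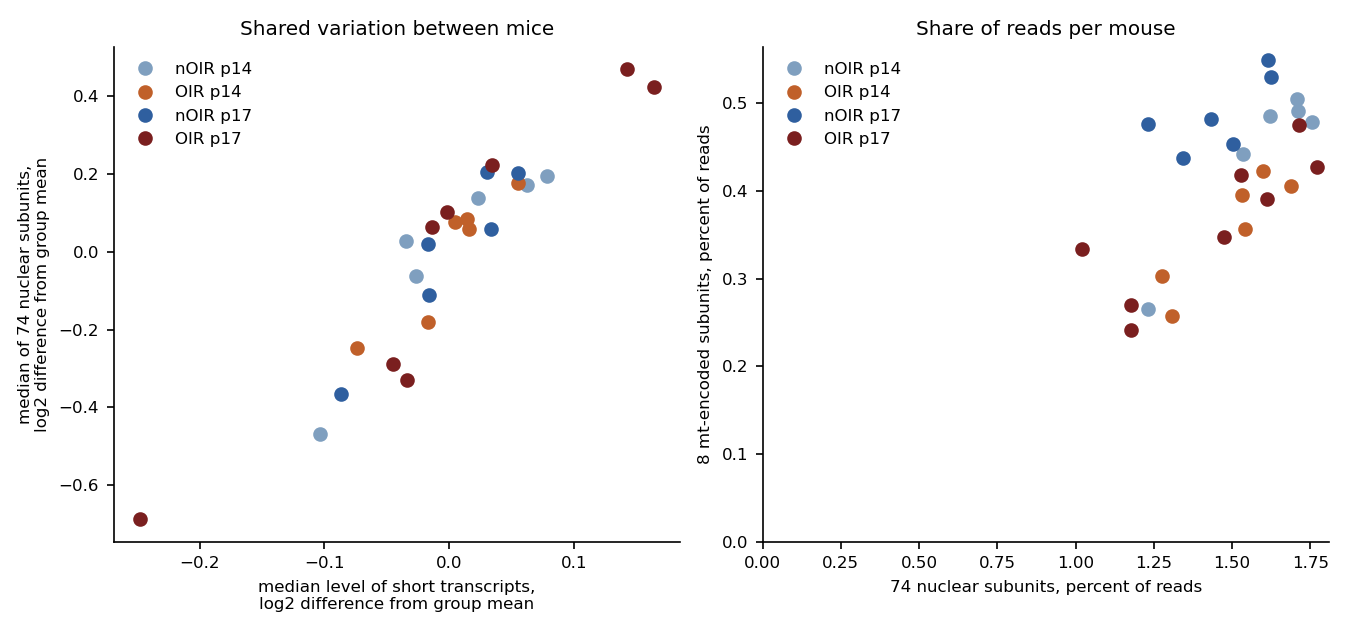
Left, median log2 level of the 74 nuclear subunits against that of 870 short transcripts in each of 26 mice, both relative to the group mean; the points follow one line in all 4 groups (r = 0.94). Right, percent of reads on the 8 mt-encoded against the 74 nuclear subunits in each mouse; nOIR p17 mice lie above OIR mice with similar nuclear shares.

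The short-transcript level was then added as a covariate, an alternative chosen after the data were seen. With it, 44 of 82 subunits were called lower at p17 and 0 higher, against 6.93% and 8.14% of all genes. The 44 were 7 of 8 mt-encoded subunits, all but mt-Co1, and 37 nuclear subunits: 17 of 37 in complex I, 1 of 4 in complex II, 3 of 8 in complex III, 7 of 9 in complex IV and 9 of 16 in complex V. The median log2 fold change was -0.23 for the nuclear and -0.56 for the mt-encoded subunits, and the median SE of a nuclear subunit was 0.07 in place of 0.15. Values in this fit included -0.25 for Uqcrfs1 (adjusted p = 0.00197), -0.32 for Atp5g3 (0.00216), -0.27 for Ndufs8 (0.00362), -0.29 for Cox8a (0.00399) and -0.19 for Atp5b (0.00628), all by limma.

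With the same covariate, 2 subunits were called lower at p14, Ndufb2 and Atp5d (-0.24, adjusted p = 0.00711), against 3.85% of all genes. There the nuclear median moved the other way, to -0.05 from -0.14 without the covariate, and 63 of 82 subunits were below 0 instead of 75. From nOIR p14 to nOIR p17 mice it moved to 0.00 from -0.12. The covariate fit called 11 of 82 lower in OIR p17 against OIR p14 mice, where 3.1% of all genes were. The contrast between the effects at p17 and p14 again had 0 calls, with 13 of 82 subunits lower and 0 higher at an unadjusted p under 0.05, where 4.99% of all genes were lower and 6.86% higher. The number of calls therefore depended on this covariate, and what the short-transcript level stands for was not tested.

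**Figure D5:**
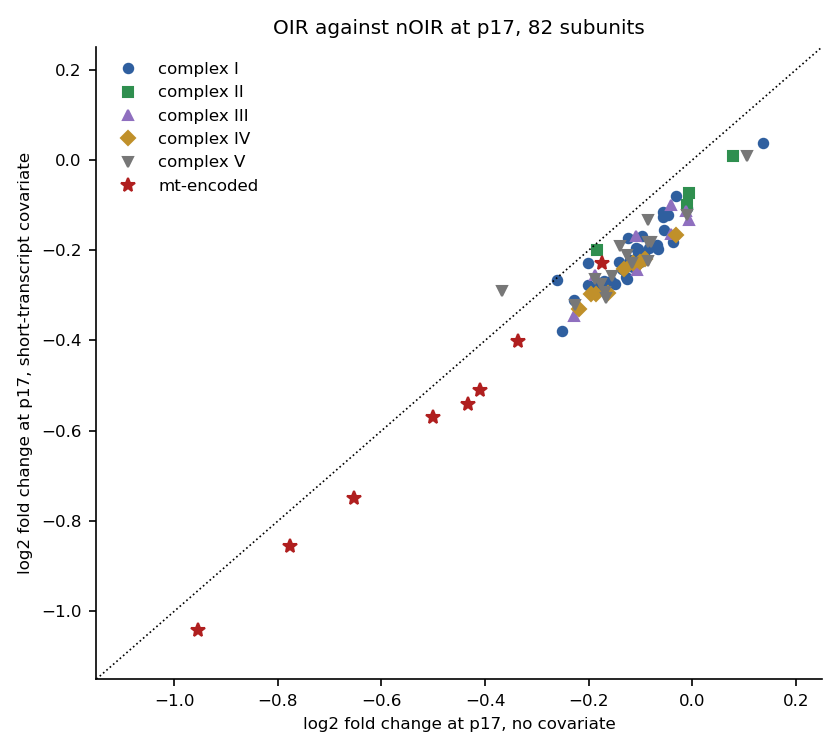
Log2 fold change at p17 of each of the 82 subunits with the short-transcript covariate (vertical axis) against that without it (horizontal axis), by complex; the dotted line marks equal values. Most nuclear subunits lie below the line, with medians of -0.23 with and -0.12 without the covariate.

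Levels of cell type markers also differed between OIR and nOIR mice. Of 11 rod markers, 2 were lower at p14 and 3 at p17 by limma, and their summed level was 1432380 to 1772020 normalized reads in nOIR and 1139700 to 1517930 in OIR mice at p14, and 1513290 to 1996380 in nOIR and 1291780 to 2016230 in OIR mice at p17. At p14, 5 of 7 Müller glia, 3 of 8 ganglion cell, 3 of 6 amacrine, 3 of 5 pericyte, 1 of 8 bipolar, 1 of 8 cone, 1 of 4 horizontal cell and 1 of 6 endothelial markers were lower, and 2 of 7 microglia, 1 of 3 astrocyte and 1 of 6 endothelial markers were higher. The summed level of the pericyte markers was 3317 to 3938 normalized reads in nOIR and 1394 to 2956 in OIR mice at p14. Also lower at p17 were 3 of 6 amacrine markers (27023 to 30162 in nOIR against 18664 to 22438 in OIR mice) and 1 of 4 horizontal cell markers, and 2 of 3 astrocyte markers were higher (714 to 1232 against 2385 to 9181). Lower at p17 were 7 of 8 bipolar, 5 of 8 ganglion cell and 5 of 7 Müller glia markers, whose summed levels in nOIR against OIR p17 mice were 47886 to 53621 against 34363 to 41380, 40853 to 44907 against 26422 to 41274, and 83073 to 101091 against 68235 to 100950. Higher at p17 were 5 of 6 endothelial (6132 to 8124 in nOIR against 8517 to 11803 in OIR mice), 5 of 5 pericyte (2802 to 3510 against 8511 to 11831), 5 of 7 microglia (1412 to 1573 against 3004 to 5688) and 5 of 5 erythrocyte markers (195 to 1191 against 1227 to 16980). Of 10 lens markers, the sign of lens tissue for which S4 was left out, 0 were called at p14 or p17 by limma, edgeR or DESeq2, with 0 at an unadjusted p under 0.05 by limma at either age and 3 higher at p17 by edgeR and by DESeq2. Their summed level varied widely between mice, from 65.7 to 20885 (median 573) in nOIR and 77.3 to 8946 (2616) in OIR mice at p14, and from 245 to 11690 (2486) in nOIR and 369 to 39288 (9598) in OIR mice at p17. The part of these markers in the values of the subunits was not tested.

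Other mitochondrial genes were read from lists. Of 13 tested subunits and isoforms outside the rule, limma and edgeR called 2 higher at p17: Ndufa4l2, an isoform of Ndufa4 known to be induced by hypoxia, had 121.5 ± 21.7 normalized reads in the 6 controls at p17 (mean ± SD) against 3484 ± 994 in the 8 OIR mice, a log2 fold change of 4.79 (adjusted p = 1.45e-18 by limma). Cox4i2, the isoform of Cox4 known for its role at low oxygen, had 0.97 (0.00115). Ndufa4 itself had -0.33 (0.248). At p14, Ndufa4l2 was higher by 3.52 on the log2 scale (4.12e-14) and Cox4i2 was not called (0.35, 0.461). DESeq2 also called Cox6a2 higher at p17 and Cox8b lower at p14. With the short-transcript covariate, Ndufa4, Cox4i1 and Cycs, which encodes cytochrome c, were called lower at p17, and at p14 Cox4i2 was called higher and Cox6b2 lower.

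For assembly factors of complex I, limma called 0 of 17 genes at p14 and p17, with 1 higher and 2 lower at an unadjusted p under 0.05 at each age; edgeR called 0 and DESeq2 1, Foxred1, which was higher at p14. Of 34 assembly factors for complexes II to V, Bcs1l, which inserts the Rieske protein, was lower at p14 (-0.42, adjusted p = 0.0363), and 0 were called at p17 by limma, edgeR or DESeq2, with 1 lower at an unadjusted p under 0.05 in the limma fit. Of 78 genes of the mitochondrial ribosome, 0 were called at p14 or p17 by the 3 tools, with 2 lower at p14 at an unadjusted p under 0.05 in the limma fit. Of 20 genes for the expression of mitochondrial DNA, 0 were called at p14 or p17 by the 3 tools, with 1 higher at p14 at an unadjusted p under 0.05. In the tricarboxylic acid cycle, 0 of 17 were called at p14 by limma, with 5 lower at an unadjusted p under 0.05, and edgeR and DESeq2 each called 1 lower, Idh3b. At p17 Idh2 (0.44, 0.00145) and Suclg2 (0.55, 0.0388) were higher and 3 genes lower, among them Dlat (-0.27, 0.0236) and Pdhb (-0.24, 0.0239), subunits of pyruvate dehydrogenase. DESeq2 called 4 lower at p17, with Ogdh added.

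These lists moved with the short-transcript covariate too. At p17 it gave 6 of 78 genes of the mitochondrial ribosome lower, 3 of 17 assembly factors of complex I, 2 of 34 of complexes II to V and 6 of 17 genes of the tricarboxylic acid cycle, where 6.93% of all genes were lower. At p14 it gave 1 of 78 genes of the ribosome and 2 of 17 of the cycle lower, and 1 of 17 assembly factors of complex I, Foxred1, higher.

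Among 11 regulators of mitochondrial genes, Esrra was lower at p14 (-0.56, adjusted p = 0.0114 by limma), and Esrrg (-0.40, 0.00491) and Ppargc1a, which encodes the coactivator PGC-1α (-0.32, 0.0247), were lower at p17. Of 8 genes for the removal of mitochondria, Bnip3, a receptor for mitophagy, was higher at both ages (1.06, 2.44e-05 at p14 and 1.12, 7.83e-07 at p17), and its relative Bnip3l was higher at p17 (0.40, 0.0081). At p14, limma gave Bnip3l 0.36 (0.059), and edgeR and DESeq2 called it higher at that age too. Of the 3 tools without a covariate, DESeq2 alone called Fundc1, another mitophagy receptor, lower at p17 (-0.37, 0.052 by limma). With the short-transcript covariate, limma called Fundc1 lower at p17 and Bnip3l higher at p14 too.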

How the data were processed

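Whole retinas were sequenced by the authors with 50-base single reads, which were mapped with STAR 2.7.8a (Gencode M28) and counted with featureCounts 2.0.1 at default settings, without strand. The deposited values are a signal of normalized reads, counts that the authors divided by 1 DESeq2 1.34 size factor per mouse; whole reads were recovered from 100% of values within 0.1 read, although for nOIR p14 S4, OIR p14 S3 and OIR p17 S4 the size factor is too near 1 to tell this from rounding. The deposited means, fold changes and p-values of the authors were not used. Removal of PCR copies is not described in the sources used here.

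Log2(normalized reads + 1) was fitted with limma 3.58.1 (eBayes with a trend, R 4.3.3) over 4 groups and 26 mice, for genes with a mean of at least 1, with Benjamini-Hochberg adjustment. S4 of nOIR p14 was left out as by the study. edgeR 4.0.16 and DESeq2 1.42.0 used recovered reads. Limma was also tested on simulated data, where large changes were recovered. Changes as small as those of most subunits were not simulated, so their recovery was not tested. Windows and lengths came from GENCODE M21 (GRCm38), which matched 79 of 82 subunits, a different annotation from the authors'. mt-Co2, mt-Atp8, mt-Nd4l and Atp5o were not analysed here. Members and lists were chosen with earlier results of these data known. Named were the mt-encoded, complex II and core subunits (1 core subunit is not reported here), the 2 with the smallest adjusted p in each direction and the lowest and highest fold change per complex and age, those nearest the limit of 10, and the 2 called genes of each list with the smallest adjusted p in each direction. Foxred1, Idh3b, Ogdh, Fundc1, Ndufa4, Cox4i1, Cycs, Cox6a2, Cox6b2 and Cox8b were named after their values were seen. Other scalings, filters, tools, a replicate block and leaving out each mouse were the alternatives; the covariates were added after the data were seen.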

Additional observations from a re-analysis of the deposited data

Results flagged for a closer look

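In the groups of 6 to 8 mice, 168 sets of values were examined for a single mouse far from the rest, and 18 were found. Chance gives about 1 in 20 for independent sets, but these sets share mice and their subunits moved together. All 18 came from 3 mice. No explanation was tested. Mouse S1 of nOIR p14 was the lowest of its group in most of the 18 sets. It had 16450 normalized reads of mt-Nd1, 3696 of mt-Nd2, 5664 of mt-Nd4, 10310 of mt-Nd5, 2120 of mt-Nd6 and 32190 of mt-Cytb, where the other 5 mice had at least 29120, 7912, 10770, 17650, 4604 and 49090. Its share of reads on mt-encoded subunits was 0.2648% (others 0.4422% to 0.5044%), and its ratio of mt-encoded to nuclear share 0.2153 (others 0.2727 to 0.2997). Nuclear subunits were low in the same mouse, with 1736 normalized reads of Ndufb2, 3671 of Ndufv2, 2033 of Uqcrb, 3929 of Uqcrfs1 and 1751 of Cox7c.

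Mouse S1 of OIR p14 was the highest of its group for 4 subunits, with 34900 normalized reads of Atp5a1 (others 25240 to 27080), 6358 of Ndufs1 (4532 to 4643), 7601 of Uqcrc2 (3986 to 4360) and 598.7 of Atp5g2 (362.8 to 445.6). Mouse S1 of nOIR p17 had 23710 normalized reads of Atp5a1, below the 27480 to 28470 of the others.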

How the results depend on the processing

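Members higher stayed at 0 in the 5 comparisons under each alternative run for them. Fitting only the compared groups was not run for the contrast of the OIR effects at both ages. For members lower at p17 (6), scaling to the same total gave 3 (3.55% of all genes) and quantile normalization 3 (5.33%). An adjusted p under 0.01 also gave 3. Among alternatives added after the data were seen, the short-transcript covariate gave 44, with the replicate block 31, and the long-transcript covariate 65, where 6.93%, 6.02% and 7.74% of all genes were lower (5.12% without). For members lower at p14 (1), these gave 2, 2 and 6 (3.85%, 3.41% and 4.22% of all genes). For OIR p17 against OIR p14 (0), they gave 11, 7 and 20 (3.1%, 1.78% and 3.47%), and the long-transcript covariate gave 1 for the contrast of the OIR effects at both ages (0). Leaving out each mouse gave 4 to 6 lower at p17, 1 to 4 at p14 and 0 to 0 in the other 3 comparisons. The 4 at p14 were found without nOIR p14 mouse S1, where 2.82% of all genes were lower. Over left-out mice, medians ran from -0.24 to -0.09 at p14 and -0.19 to -0.01 (without OIR p17 S1) at p17 for nuclear, and from -0.52 to -0.29 and -0.55 to -0.38 for mt-encoded subunits. With the same total, the nuclear median at p17 was -0.05, with quantile normalization -0.05 and with S4 the p14 median was -0.06. Mice share numbers across groups, but only 7 of 34 same-number pairs had a correlation of deviations above 0.1 (median 0.01). Of pairs with different numbers, 39 of 218 did, so the numbers were not taken to pair mice. The S1 mice of nOIR p14, nOIR p17 and OIR p17 did deviate together (0.2532 to 0.3299), unlike OIR p14 S1. Pairs with different numbers reached up to 0.3062. With the replicate block, 7 members were lower at p17 and 1 at p14, against 4.68% and 2.4% of all genes. Medians in that fit were -0.22 and -0.57 at p17 and -0.11 and -0.31 at p14. The causes of these differences were not tested. No result changed sign with a call. The values of mt-Nd3 and Atp5l rest on few reads, and those of subunits with copies elsewhere on part of their sequence. The part of sequencing depth in the differences was not tested.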
